A study of Arabidopsis thaliana with 12 samples.

Results

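The genes described here are 10 Arabidopsis thaliana loci of root hair development, taken by locus ID from a list of names that was drawn up with earlier results of these data known: the transcription factor genes RHD6 (AT1G66470), RSL4 (AT1G27740) and RSL2 (AT4G33880), the cell wall genes EXPA7 (AT1G12560), EXPA18 (AT1G62980), PRP1 (AT1G54970), PRP3 (AT3G62680) and LRX1 (AT1G12040), the cell surface gene COBL9 (AT5G49270) and the oxidase gene RHD2 (AT5G51060). All 10 were measured among 19397 genes in 6x_pfd, and 8 of them among 18366 genes in pfd4, where RSL4 and COBL9 were not analysed. The study sequenced polyadenylated RNA of entire Col-0 seedlings grown in vitro, 12 biological samples in 4 groups of 3. The mutant pfd4 was set against WT at 14 days (growth label LD, ZT1), and the mutant labelled 6x_pfd was set against its own WT at 7 days (growth label LL). The titles of the 14-day samples of both genotypes carry the word mock, but the labels describe no treatment and no allele. PFD4, a subunit gene of the prefoldin chaperone, was lower in both mutants, at -1.99 ± 0.17 (log2 fold change, SE) for pfd4 and -3.78 ± 0.19 (log2 fold change, SE) for 6x_pfd in the authors' deposited table of each.

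A root hair is a tubular outgrowth of a single epidermal cell that extends by growth at its tip. In files of the epidermis that touch the boundary between cortical cells, the basic helix-loop-helix protein RHD6 switches on the hair programme, and it acts through RSL4 and RSL2, related factors that set how long the hair grows. Downstream genes then loosen and rebuild the wall, deliver material to the tip and produce reactive oxygen species there. Prefoldin is a chaperone that hands unfolded proteins, among them tubulin and actin, to the cytosolic chaperonin.

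In 6x_pfd seedlings, 9 of the 10 root hair genes rose and none fell, while in pfd4 seedlings none of the 8 measured genes passed the test. The rises in 6x_pfd ran from 1.38-fold for EXPA18 to 2.42-fold for PRP1. A gene was called at an adjusted p below 0.05 (DESeq2, Wald test with Benjamini-Hochberg adjustment over all genes, as the authors computed it). By that rule 33.6% of all genes tested were called in 6x_pfd, with 16.9% of all genes tested called as higher and 16.8% as lower. In pfd4 7.75% of all genes tested were called, with 3.94% of all genes tested called as higher and 3.81% as lower. The median log2 fold change of the root hair genes in 6x_pfd was 0.60, beside 0.001 over all genes of the authors' deposited table. In pfd4 the median over the 8 genes was -0.45, beside -0.003 over all genes of the authors' deposited table. All 8 values in pfd4 were below 0, as were 50.7% of the values of all genes, and 1 of 10 (RSL2) was below 0 in 6x_pfd, as were 49.8% of all genes. At an adjusted p below 0.01, 8 of the 10 genes were called in 6x_pfd, all as higher, beside 24.8% of all genes (12.5% as higher and 12.3% as lower), and none of the 8 was called in pfd4, beside 4.55% of all genes (2.55% as higher and 1.99% as lower). In pfd4, at an unadjusted p below 0.05 the test took in 3 of the 8 (RHD6, EXPA7 and LRX1) and 19% of all genes. With the Wald score rescaled to unit spread over all genes, which leaves 932 genes called in 6x_pfd, 1 of the 10 (PRP1) was called. In whole seedlings, fewer hair cells and less RNA per hair cell cannot be told apart, and neither can more hair cells and more RNA per cell. A changed share of root tissue in the seedling cannot be told apart from these either.

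**Figure D1:**
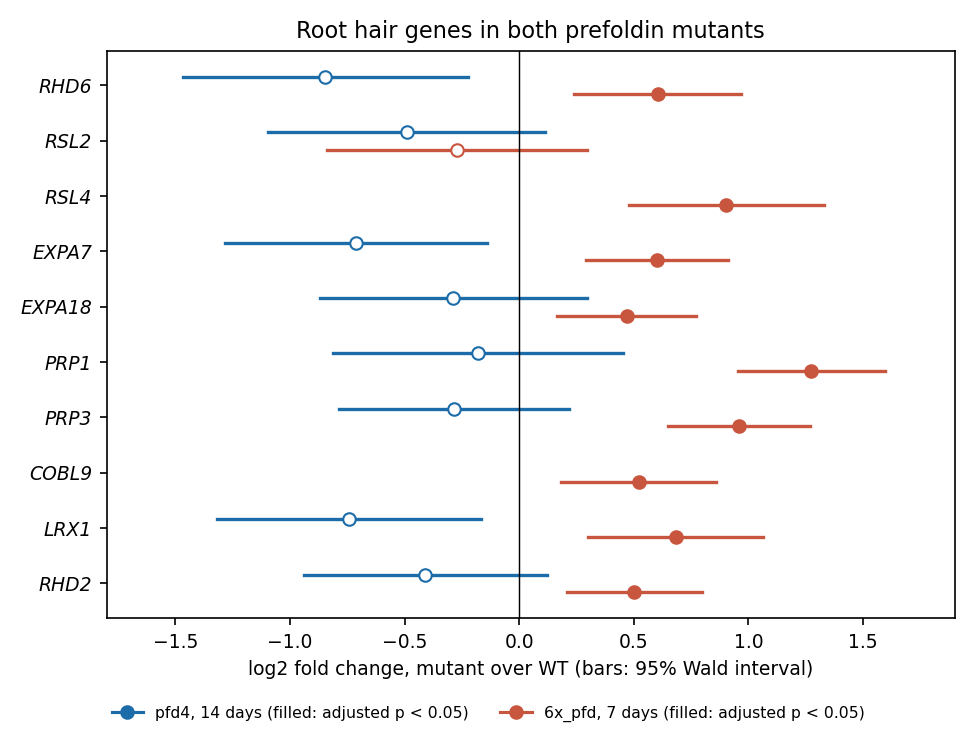
Log2 fold change of each root hair gene, mutant over WT, from the authors' deposited tables, with 95% Wald intervals (blue, pfd4 at 14 days; red, 6x_pfd at 7 days; filled points passed an adjusted p of 0.05). The 9 filled red points lie between 0.47 and 1.27, and the 8 blue points are open and lie between -0.85 and -0.18.

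The regulators were read at low levels in both experiments. The mean of each group was worked out from the deposited mean of both groups and the fold change, since no value per library was at hand, and it is given in normalized counts. RHD6, the factor that starts the hair programme, stood at 126 normalized counts in WT and 192 in 6x_pfd. That was a rise of 0.60 ± 0.19 (log2, SE) at an adjusted p of 0.00513 in the authors' deposited table (DESeq2). At 14 days RHD6 stood at 68.4 in WT and 38.1 in pfd4. Its log2 fold change of -0.85 ± 0.32 (SE), the lowest of the 8, had an adjusted p of 0.0801 in the authors' deposited table (DESeq2) and was not called.

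RSL4, a growth regulator that RHD6 acts through, rose in 6x_pfd from 267 to 499 normalized counts. Its log2 fold change was 0.90 ± 0.22 (SE), with an adjusted p of 0.00022 in the authors' deposited table (DESeq2). RSL2, the related factor, was the 1 root hair gene that was not called in 6x_pfd. It stood at 154 normalized counts in WT and 128 in 6x_pfd, a log2 fold change of -0.27 ± 0.29 (SE) with an adjusted p of 0.516 in the authors' deposited table (DESeq2). Its 95% interval, from -0.84 to 0.30, overlaps that of RHD6 (0.24 to 0.97) and ends below that of RSL4 (0.48 to 1.33). In pfd4 the level of RSL2 was 67.2 in WT and 47.8 in the mutant, with a log2 fold change of -0.49 ± 0.31 (SE) and an adjusted p of 0.413 in the authors' deposited table (DESeq2).

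Before the values of the wall genes, their promoters are shown, because a short sequence element is known to mark promoters active in hair cells. The core of this root hair element was searched in 4 spellings, TGNNNGCACG, TGNNNTCACG, TGNNNNGCACG and TGNNNNTCACG, on both strands, from 250 bases before to 50 bases after each gene start of the RefSeq annotation of TAIR10.1. It was found in 6 of the 10 root hair genes, namely EXPA7, EXPA18, PRP1, PRP3, LRX1 and COBL9, and in 1357 of all 27443 promoters (4.94%). No match lay in this window of RHD6, RSL4, RSL2 or RHD2. The element was first described on hair-cell promoters that included those of EXPA7 and EXPA18, so these matches are not independent of the choice of genes. PRP1 is also RHS7, 1 of the RHS genes found in a genome search that used the element, so its match is not independent either. The lines that follow show 1 match per gene in capitals with 10 bases on each side, on the strand of the gene; in PRP1, PRP3 and LRX1 the core lies on the opposite strand, so it reads as its reverse complement.
EXPA7: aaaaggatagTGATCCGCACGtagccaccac
EXPA18: aaaacaaacaTGAACGCACGtccattactt
PRP1: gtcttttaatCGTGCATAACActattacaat
PRP3: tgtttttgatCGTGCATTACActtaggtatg
LRX1: cctctaggaaCGTGCGTCCAagtttgagga
COBL9: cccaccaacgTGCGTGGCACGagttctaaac

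In TAIR10.1 coordinates these stretches are chr1:4276421-4276451 (plus strand) for EXPA7, chr1:23331517-23331546 (plus strand) for EXPA18, chr1:20504764-20504794 (plus strand) for PRP1, chr3:23182547-23182577 (plus strand) for PRP3, chr1:4069891-4069920 (plus strand) for LRX1 and chr5:19974557-19974587 (minus strand) for COBL9. All 6 lie upstream of the annotated gene start. The stretches of PRP1 and PRP3 carried the same base at 19 of 31 positions. Both were found by the same spelling of the core, so its fixed bases are part of this count by the search itself. EXPA7 held another match 246 to 237 bases before its start and LRX1 another 247 to 238 bases before its start, EXPA18 held another just after its start, and the match of COBL9 overlapped a match on the opposite strand. The G-box CACGTG, searched on both strands as a comparison, was in 0 of the 10 promoters and in 7.68% of all promoters.

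**Figure D2:**
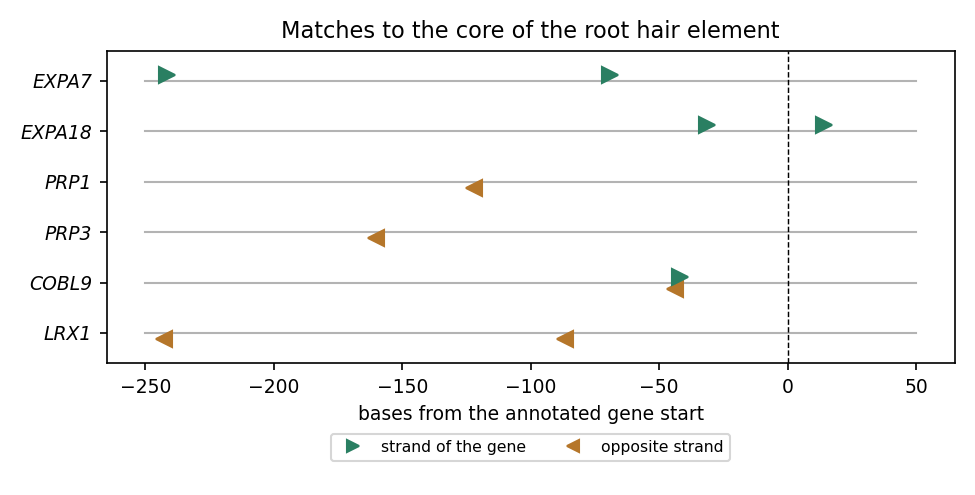
Position of each match to the core of the root hair element in the 6 promoters that hold one, in bases from the annotated gene start (green, strand of the gene; brown, opposite strand). The matches of EXPA18 and COBL9 lie within 50 bases of the start, and those of PRP1 and PRP3 lie further upstream on the opposite strand.

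Among the 10 genes, the fold changes in 6x_pfd were highest for the proline-rich proteins PRP1 and PRP3. PRP1, a proline-rich wall protein of root hairs, rose from 2041 to 4936 normalized counts. The log2 fold change of PRP1 was 1.27 ± 0.16 (SE), with an adjusted p of 1.67e-13 in the authors' deposited table (DESeq2). It was the only root hair gene of the 10 past an absolute log2 fold change of 1, and so the only one in the authors' shorter deposited list of 1186 genes (6.12% of those tested). None of the 8 genes was in the corresponding list of 198 genes for pfd4 (1.08% of those tested). PRP3, its relative in the same family, rose from 3876 to 7532 normalized counts, by 0.96 ± 0.16 (log2, SE) at an adjusted p of 2.19e-08 in the authors' deposited table (DESeq2). LRX1, a leucine-rich repeat extensin needed for the shape of the hair wall, rose from 1276 to 2047, by 0.68 ± 0.19 (log2, SE) at an adjusted p of 0.00226 in the authors' deposited table (DESeq2).

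The expansin genes, whose proteins loosen the wall, rose as well. EXPA7 went from 746 to 1133 normalized counts in 6x_pfd, a log2 fold change of 0.60 ± 0.16 (SE) with an adjusted p of 0.000858 in the authors' deposited table (DESeq2). EXPA18 went from 1003 to 1387, a log2 fold change of 0.47 ± 0.16 (SE) with an adjusted p of 0.0102 in the authors' deposited table (DESeq2). The 95% interval of PRP1 (0.95 to 1.59) lies wholly above those of EXPA7 (0.29 to 0.91) and EXPA18 (0.16 to 0.77), and that of PRP3 (0.65 to 1.27) overlaps both. The genes share libraries, so these intervals were set side by side and the differences between genes were not tested.

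The expansin genes each overlap a gene on the opposite strand, EXPA7 by 23 bases with AT1G12570 and EXPA18 by 46 bases with AT1G62978. The library kit keeps the strand, but the sources used here do not say whether reads were counted by strand. AT1G12570, annotated as a member of an oxidoreductase family, fell in 6x_pfd by 0.88 ± 0.20 (log2, SE) at an adjusted p of 5.92e-05 in the authors' deposited table (DESeq2), while EXPA7 rose. AT1G12570 also fell in pfd4, by 0.82 ± 0.26 (log2, SE) at an adjusted p of 0.0232 in the authors' deposited table (DESeq2). Between related root hair genes the longest identical run of transcript was 33 bases for PRP1 and PRP3, 21 for EXPA7 and EXPA18 and 17 for RSL2 and RSL4. No 50-base window of 9 of the 10 transcripts occurs in another gene, and 1 window of RSL2 does.

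In pfd4 the wall genes lay below WT without passing the test. LRX1 stood at 145 normalized counts in WT and 86.6 in the mutant, with a log2 fold change of -0.74 ± 0.29 (SE) and an adjusted p of 0.106 in the authors' deposited table (DESeq2). EXPA7 stood at 130 and 79.2, at a log2 fold change of -0.71 ± 0.29 (SE) and an adjusted p of 0.122 in the authors' deposited table (DESeq2). The other 3 were closer to WT. EXPA18 stood at 97.5 in WT and 79.9 in pfd4, PRP3 at 203 and 167, and PRP1 at 74.3 and 65.6. Their log2 fold changes of -0.29 ± 0.30 (SE), -0.28 ± 0.26 (SE) and -0.18 ± 0.32 (SE) had adjusted p-values of 0.689, 0.628 and 0.845 in the authors' deposited table (DESeq2).

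COBL9 encodes a COBRA-like protein anchored to the cell surface and needed for tip growth of hairs. It rose in 6x_pfd from 661 to 948 normalized counts, by 0.52 ± 0.17 (log2, SE) at an adjusted p of 0.00988 in the authors' deposited table (DESeq2). RHD2, also known as RBOHC, encodes the NADPH oxidase that produces reactive oxygen species at the hair tip. It rose in 6x_pfd from 846 to 1198, by 0.50 ± 0.15 (log2, SE) at an adjusted p of 0.00371 in the authors' deposited table (DESeq2). In pfd4 RHD2 stood at 357 in WT and 269 in the mutant, with a log2 fold change of -0.41 ± 0.27 (SE) and an adjusted p of 0.447 in the authors' deposited table (DESeq2).

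The test in pfd4 could pass only large changes of these genes. Their SE ran from 0.26 to 0.32 with a median of 0.30, beside 0.13 over all genes and 0.19 over the 5609 genes in the same range of mean counts in the authors' deposited table. With these errors a root hair gene had to move by at least 0.74 (PRP3) to 0.93 (PRP1) on the log2 scale to be called. In 6x_pfd the same limit ran from 0.36 (RHD2) to 0.69 (RSL2). The 95% intervals in pfd4 of RHD6 (-1.47 to -0.22), LRX1 (-1.32 to -0.16) and EXPA7 (-1.28 to -0.14) lay below 0 before the adjustment for many genes, and the other 5 included 0.

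Per kilobase of transcript, the 10 genes spanned a wide range of levels in the 7-day WT. PRP3 was highest at 3175 normalized counts per kb, followed by PRP1 (1487), EXPA18 (801), EXPA7 (668), LRX1 (474), COBL9 (292), RHD2 (257), RSL4 (199.5), RSL2 (112) and RHD6 (88.4). The wall genes thus lay above the transcription factor genes. In the 14-day WT the 8 genes kept within a narrower range, from 166.5 for PRP3 through EXPA7 (116), RHD2 (108), EXPA18 (77.9), PRP1 (54.1), LRX1 (53.8) and RSL2 (48.7) to RHD6 (48.0). PRP1 thus ranked just below PRP3 at 7 days, while EXPA7, RHD2 and EXPA18 lay between the pair at 14 days. The spread within a group was not available, so whether neighbours in these orders differ was not tested. The tables were normalized separately, so levels are compared within an experiment and not between them.

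**Figure D3:**
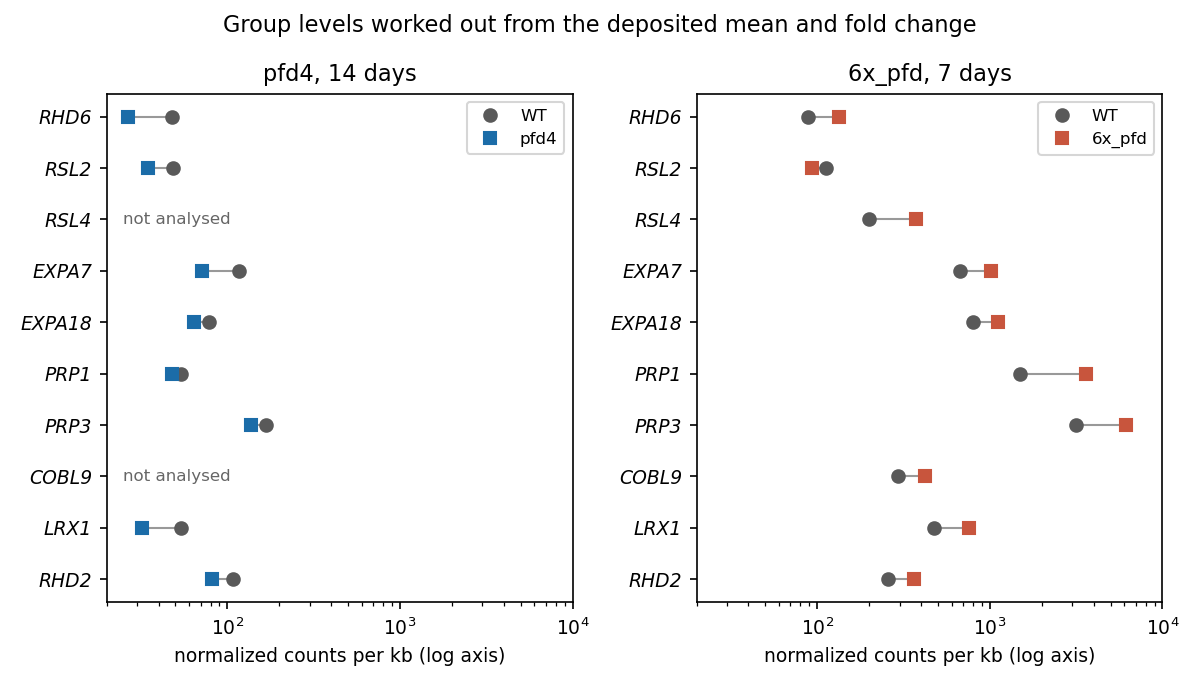
Group levels of the root hair genes in normalized counts per kb of transcript on a log axis, at 14 days (left) and 7 days (right), with WT as grey circles and the mutant as coloured squares. In 6x_pfd the square lies to the right of the circle for every gene but RSL2, and in pfd4 it lies to the left for all 8 genes measured.

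The opposite signs in the mutants were compared directly for the 8 genes measured in both. The difference of the log2 fold changes (6x_pfd minus pfd4) was tested with a two-sided Wald test on the deposited SEs and adjusted by Benjamini-Hochberg over the 18035 genes tested in both, of which 23.8% were called and 11.8% were called with 6x_pfd above. It passed for 6 of the 8, all with 6x_pfd above, and for 0 of the 8 with the score rescaled to unit spread, which left 472 genes called. The difference was 1.45 ± 0.37 (SE) for RHD6 and 1.45 ± 0.36 (SE) for PRP1, with Benjamini-Hochberg adjusted p-values of 0.000821 and 0.00062. It was 1.42 ± 0.35 (SE) for LRX1, 1.31 ± 0.33 (SE) for EXPA7 and 1.24 ± 0.30 (SE) for PRP3, with Benjamini-Hochberg adjusted p-values of 0.00058, 0.000782 and 0.000426. RHD2 had the smallest difference that passed, 0.91 ± 0.31 (SE) at a Benjamini-Hochberg adjusted p of 0.0172.

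EXPA18 and RSL2 did not pass this test. The difference was 0.76 ± 0.34 (SE) for EXPA18, with a 95% interval from 0.098 to 1.41 and a Benjamini-Hochberg adjusted p of 0.0867. For RSL2 it was 0.22 ± 0.42 (SE), with a 95% interval from -0.61 to 1.05 and a Benjamini-Hochberg adjusted p of 0.768. A value below 0 in pfd4 and above 0 in 6x_pfd, whatever the p, was seen for 7 of the 8 genes and for 26.9% of all genes tested in both. A value below 0 in pfd4 together with a call as higher in 6x_pfd was seen for 7 of the 8 genes and for 8.77% of all genes tested in both. The experiments differ in genotype, age and light regime, and these cannot be told apart in the difference.

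**Figure D4:**
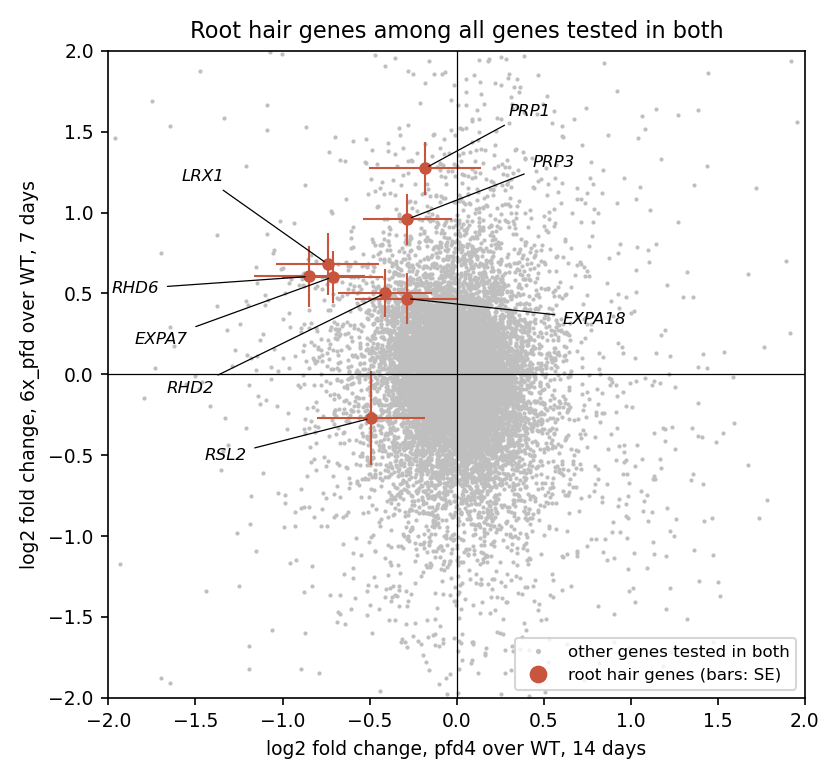
Log2 fold change in pfd4 (horizontal axis) against that in 6x_pfd (vertical axis), from the authors' deposited tables, for the 8 root hair genes (red, bars are SE) among the other genes tested in both (grey; 211 genes lie beyond the axes). The grey cloud is centred on 0 on both axes, and 7 of the 8 red points lie in the upper left quadrant, with RSL2 in the lower left.

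Outside the root hair genes, 5 genes called in both mutants had a pair of log2 fold changes closest to the pair of medians of the root hair genes, by Euclidean distance, among 721 candidates. They were 4CL2, which encodes a 4-coumarate:CoA ligase of phenylpropanoid metabolism (distance 0.0129), AT3G06530 (0.0460), AT5G09840 (0.0462), AT4G04940 (0.0465) and AT3G22660 (0.0610). 4CL2 fell in pfd4 by 0.46 ± 0.13 (log2, SE) and rose in 6x_pfd by 0.59 ± 0.12 (log2, SE), with adjusted p-values of 0.00721 and 4.45e-06 in the authors' deposited tables (DESeq2). The likeness rests on 1 value per mutant.

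Other genes of the root hair wall were also mostly higher in 6x_pfd. Of 13 measured, 11 rose and none fell (16.9% and 16.8% of all genes), with a median log2 fold change of 0.68 beside 0.001 over all genes of the authors' deposited table. XTH12, a xyloglucan endotransglucosylase/hydrolase gene, rose by 1.28 ± 0.15 (log2, SE) at an adjusted p of 7.39e-16 in the authors' deposited table (DESeq2). The extensin genes EXT12, EXT10 and EXT6 rose by 1.15 ± 0.17, 0.98 ± 0.17 and 1.04 ± 0.20 (log2, SE), at adjusted p-values of 1.28e-10, 2.13e-07 and 2.16e-06 in the authors' deposited table (DESeq2). In pfd4 none of the 9 measured was called (DESeq2), beside 7.75% of all genes, and 0 had an unadjusted p below 0.05, beside 19% of all genes. Their median was -0.15 in the authors' deposited table. None of the promoters of these 14 listed genes held the core of the root hair element in the window searched.

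The RHS genes, found in a genome search that used the root hair element, were a further set. RHS7 is PRP1 and was left out of this set. Of 16 measured in 6x_pfd, 10 rose and 1 fell (16.9% and 16.8% of all genes), with a median log2 fold change of 0.59 in the authors' deposited table. RHS18, RHS19 and RHS9 rose by 1.01 ± 0.20, 0.84 ± 0.14 and 0.80 ± 0.14 (log2, SE), at adjusted p-values of 2.92e-06, 5.36e-08 and 7.77e-08 in the authors' deposited table (DESeq2). RHS5 fell by 0.94 ± 0.11 (log2, SE) at an adjusted p of 6.43e-15 in the authors' deposited table (DESeq2). In pfd4 none of the 5 measured was called (DESeq2), beside 7.75% of all genes, and 0 had an unadjusted p below 0.05, beside 19% of all genes. Their median was -0.29 in the authors' deposited table. The core was found in 8 of 17 RHS promoters (47.1%), a share that is not independent of the search that defined them. The genes with the core in their promoters were also counted without the 10 root hair genes but with the RHS genes. In 6x_pfd 199 rose and 169 fell of 959, beside 16.9% and 16.8% of all genes, and the median was 0.01. In pfd4 38 rose and 35 fell of 871, beside 3.94% and 3.81% of all genes, and the median was 0.00.

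Genes that set hair and non-hair cell fate went both ways in 6x_pfd, where 3 of 12 rose and 4 fell (16.9% and 16.8% of all genes), with a median log2 fold change of 0.02 in the authors' deposited table. GL2, which marks non-hair cells and represses the hair programme, fell by 0.39 ± 0.10 (log2, SE) at an adjusted p of 0.000467 in the authors' deposited table (DESeq2). TTG1 and JKD, which act in the pattern of the epidermis, fell by 0.52 ± 0.08 and 0.60 ± 0.11 (log2, SE), at adjusted p-values of 3.46e-09 and 2.68e-07 in the authors' deposited table (DESeq2). ETC3, a small MYB gene of the CPC family, and TTG2, a WRKY gene active in non-hair cells, rose by 1.24 ± 0.19 and 0.78 ± 0.15 (log2, SE), at adjusted p-values of 7.47e-10 and 1.6e-06 in the authors' deposited table (DESeq2). WER, which specifies non-hair cells, had a log2 fold change of 0.15 ± 0.19 (SE) and CPC, which promotes hair fate, one of -0.06 ± 0.21 (SE), neither of them called in the authors' deposited table. Of the non-hair markers GL2, WER and TTG2, 1 thus fell, 1 rose and 1 was not called. In pfd4 none of 11 fate genes was called, beside 7.75% of all genes, and 1 (TTG1) had an unadjusted p below 0.05, beside 19% of all genes. There GL2 was at 0.00 ± 0.14 (SE) and CPC at 0.03 ± 0.21 (SE) in the authors' deposited table.

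Of 6 other regulators of root hair growth, 2 rose and 2 fell in 6x_pfd (16.9% and 16.8% of all genes), with a median log2 fold change of 0.27 in the authors' deposited table. GTL1, a repressor of hair growth, fell by 0.85 ± 0.11 (log2, SE) at an adjusted p of 2.55e-14 in the authors' deposited table (DESeq2). OBP4, which restrains RSL2 and hair growth, fell by 0.41 ± 0.13 (log2, SE) at an adjusted p of 0.00528 in the authors' deposited table (DESeq2). LRL2 and ZFP5, which promote hair development, rose by 0.34 ± 0.13 and 0.50 ± 0.18 (log2, SE), at adjusted p-values of 0.0324 and 0.0161 in the authors' deposited table (DESeq2). ZFP5 was the only one of the 6 called in pfd4, where 7.75% of all genes were called. There ZFP5 fell by 0.99 ± 0.31 (log2, SE) at an adjusted p of 0.0229 in the authors' deposited table (DESeq2). Its difference between the mutants was 1.49, with a Benjamini-Hochberg adjusted p of 0.000314. ZFP5 thus had the signs seen in 7 of the 8 root hair genes, and it passed the test in both mutants.

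Genes of tip growth signalling and secretion were called about as often as all genes in 6x_pfd, where 33.6% of all genes were called. There 5 of 24 rose and 3 fell, with a median log2 fold change of 0.01 in the authors' deposited table. COW1, a phosphatidylinositol transfer protein gene, MRH2, which encodes a kinesin with armadillo repeats, and ADF8, an actin depolymerizing factor gene, rose by 0.61 ± 0.16, 0.53 ± 0.18 and 0.49 ± 0.16 (log2, SE), at adjusted p-values of 0.000599, 0.0117 and 0.00823 in the authors' deposited table (DESeq2). ROP2, a small GTPase gene that marks the site of hair outgrowth, fell by 0.22 ± 0.07 (log2, SE) at an adjusted p of 0.0106 in the authors' deposited table (DESeq2). In pfd4 2 of 21 fell, beside 3.81% of all genes, the myosin gene XIK by 0.31 ± 0.09 and the receptor-like kinase gene MRH1 by 0.34 ± 0.11 (log2, SE), at adjusted p-values of 0.0175 and 0.0239 in the authors' deposited table (DESeq2). At an unadjusted p below 0.05 the test took in 6 of these 21 in pfd4, beside 19% of all genes.

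Auxin and ethylene, which promote root hair growth, were followed through 11 genes. In 6x_pfd 3 rose and 5 fell (16.9% and 16.8% of all genes), with a median log2 fold change of -0.19 in the authors' deposited table. IAA7, an auxin response repressor, and AUX1, an auxin uptake carrier, fell by 0.85 ± 0.07 and 0.62 ± 0.09 (log2, SE), at adjusted p-values of 1.94e-29 and 9.61e-10 in the authors' deposited table (DESeq2). ARF5, an auxin response factor, and PIN2, an auxin efflux carrier, rose by 0.32 ± 0.08 and 0.37 ± 0.10 (log2, SE), at adjusted p-values of 0.000961 and 0.00143 in the authors' deposited table (DESeq2). The ethylene genes EIN3 and EIL1 fell by 0.19 ± 0.08 and 0.34 ± 0.10 (log2, SE), at adjusted p-values of 0.0472 and 0.00215 in the authors' deposited table (DESeq2). None of the 11 was called in pfd4 (DESeq2), beside 7.75% of all genes. There 2 had an unadjusted p below 0.05, beside 19% of all genes, with TAA1 at -0.40 ± 0.14 and EIL1 at 0.21 ± 0.08 (log2, SE).

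Markers of other root cell types are given beside these results. In pfd4 4 of the 15 measured fell and none rose (3.81% and 3.94% of all genes), and 9 of the 15 had an unadjusted p below 0.05 (19% of all genes), with a median log2 fold change of -0.30 in the authors' deposited table, and their summed level went from 9500.1 normalized counts in WT to 8428 in the mutant (88.7%). The summed level of the 8 root hair genes there went from 1142 to 833. Among the markers that fell were CASP2 and ESB1 of the endodermal Casparian strip and AHK4, a cytokinin receptor of the stele. CASP2 fell by 0.66 ± 0.16, ESB1 by 0.45 ± 0.12 and AHK4 by 0.30 ± 0.10 (log2, SE), at adjusted p-values of 0.000823, 0.00716 and 0.0417 in the authors' deposited table (DESeq2). The part of these markers in the values of the root hair genes in pfd4 was not tested.

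In 6x_pfd the same markers were called about as often as all genes. Of 16 measured, 2 rose and 3 fell (16.9% and 16.8% of all genes), the median log2 fold change was -0.09 in the authors' deposited table, and the summed level went from 18807 normalized counts in WT to 16050.3 in the mutant (85.3%). Most of that difference lay in TIP2;3 (2112 to 821) and PHO1 (4056 to 2901), and the other 14 markers summed to 12639 in WT and 12328 in the mutant (97.5%). This split was made after the values were seen. Without TIP2;3 and PHO1, the other 13 markers in pfd4 went from 6484 in WT to 5410 in the mutant (83.4%). The summed level of the 10 root hair genes in 6x_pfd went from 10996 to 19999. Most of that gain lay in PRP1 (2041 to 4936) and PRP3 (3876 to 7532). TIP2;3, a tonoplast aquaporin gene, PHO1, a phosphate exporter gene of the stele, and SHR, a regulator of the endodermis, fell by 1.36 ± 0.15, 0.48 ± 0.09 and 0.32 ± 0.11 (log2, SE), at adjusted p-values of 8.95e-18, 3.46e-07 and 0.017 in the authors' deposited table (DESeq2). BRN1, a root cap gene, and GPAT5, a suberin gene, rose by 0.69 ± 0.25 and 0.36 ± 0.14 (log2, SE), at adjusted p-values of 0.0183 and 0.0267 in the authors' deposited table (DESeq2).

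**Figure D5:**
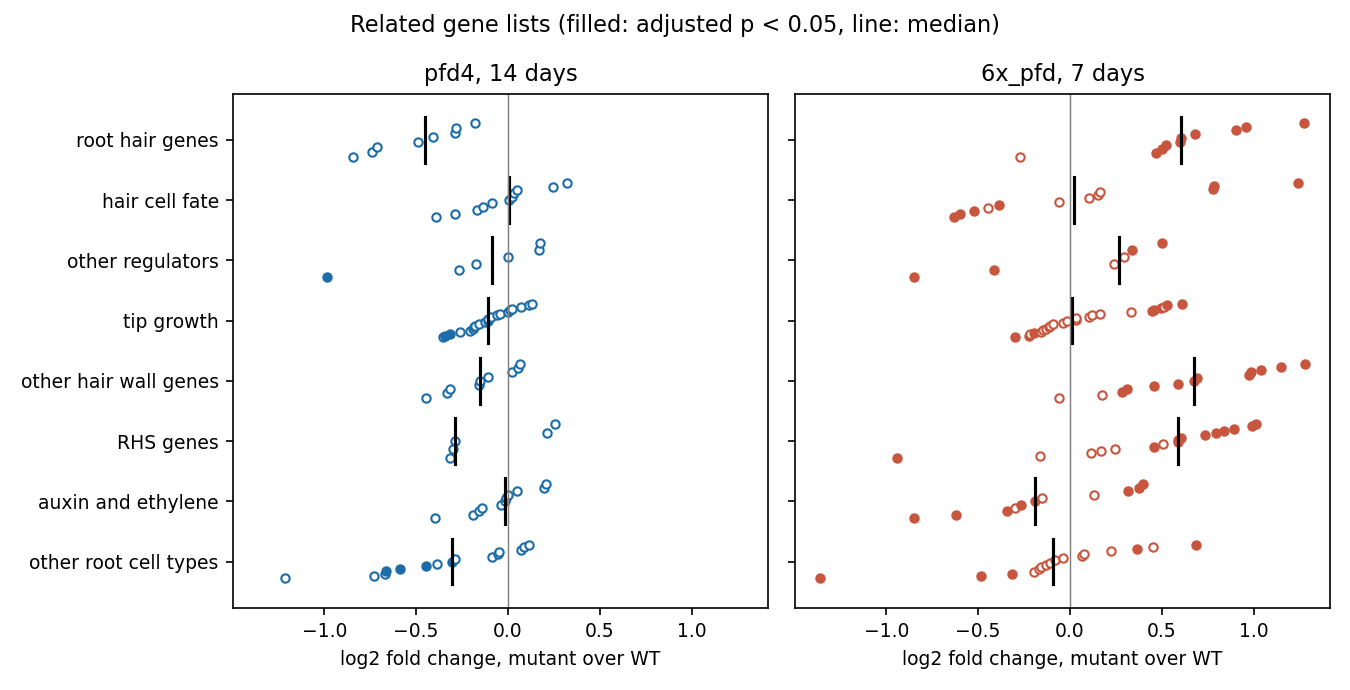
Log2 fold change of every measured gene of the root hair genes and of 7 related lists, mutant over WT, from the authors' deposited tables (left, pfd4; right, 6x_pfd; filled points passed an adjusted p of 0.05; black line, median). In 6x_pfd the medians of the root hair genes, the other hair wall genes and the RHS genes are 0.60, 0.68 and 0.59, and those of the other lists lie between -0.19 and 0.27.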

How the data were processed

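The 12 whole-seedling libraries were stranded, per the labels' protocols. The submitters' processing notes name the authors' tools as cutadapt, HISAT2, HTSeq and DESeq2, with the build TAIR10. Per the file headers, each deposited row gives a gene's mean normalized count, a signal averaged over both groups. The other deposited columns are the log2 fold change and its SE, the Wald score, and the p-value before and after adjustment. Table names point to a minimum RPKM of 1, whose exact use the sources here do not state. The authors' shorter deposited lists keep genes with an adjusted p under 0.05 and a log2 change of at least 1 either way. A filter on low values can keep genes through 1 group alone, so counts are over the genes measured.

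No value per library was used, so library depth, replicate spread and omission of single libraries were not analysed here, and the SE is the record of precision. Calls are the authors' at an adjusted p below 0.05. Computed here were group levels, 95% Wald intervals, the Wald test of the difference between the mutant effects, list counts and promoter matches, with Python 3.11.15, pandas 2.3.3, NumPy 2.4.6, SciPy 1.17.1 and matplotlib 3.10.9. The code of the Wald test was tested on simulated data before it was run on the deposited values. Promoters, sequences and transcript lengths were read from the RefSeq genome and annotation of TAIR10.1 and joined to the tables by locus ID only. A table of promoters had been planned as their source and the genome was used in its place.

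The text names the 10 root hair genes, up to 4 called genes with the smallest p per list and comparison, GL2, CPC and WER, and the 5 genes nearest to the medians among those called in both tables with SEs of at most 0.5. AT1G12570, GPAT5, TAA1, EIL1 and the overlapping AT1G62978 were added after their values were seen, and 1 gene that the rule names is not reported here. List entries were kept where RefSeq gives the symbol for the locus (111 of 123). The root hair genes and the lists were chosen with earlier results of these data known. Alternatives were another threshold, a minimum size of change, a minimum mean count of 100, centring on the median, genes in both tables and, added after seeing the data, equal library totals, a rescaled score and a wider promoter window.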

Additional observations from a re-analysis of the deposited data

Results flagged for a closer look

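For 6 root hair genes the effect differed between the mutants by the Wald test of the difference itself (adjusted by Benjamini-Hochberg over 18035 genes). The log2 fold change in 6x_pfd minus that in pfd4 was 1.45 for RHD6, 1.31 for EXPA7, 1.45 for PRP1, 1.24 for PRP3, 1.42 for LRX1 and 0.91 for RHD2. In each the value was below 0 and not called in pfd4 and called as higher in 6x_pfd. Genotype, age and light regime cannot be told apart in these differences. At 14 days RHD6 lay around the minimum RPKM of 1 and may have been kept through WT alone.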

How the results depend on the processing

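Of the 10 root hair genes, 9 rose in 6x_pfd. That count was 8 at an adjusted p below 0.01, 9 with values centred on the median or with equal library totals, and 7 of 8 among the genes in both tables. It fell to 1 (PRP1) when a log2 change of 1 or more was required, to 2 (PRP1 and PRP3) when tested against a change of 25%, and to 1 (PRP1) with the score rescaled to unit spread over all genes, a setting chosen after seeing the data. The count in pfd4 was 0 under each of these. The count of 6 genes that differed between the mutants was 5 at an adjusted p below 0.01, 6 with centred values and 0 with the rescaled score, under which 472 of all genes were called. Promoter matches were 6 of 10 for the root hair element, 6 of 10 in the window of 500 bases (8.32% of all promoters) and 0 of 10 for the G-box. Over single genes and all settings, 31 values lost their call, 135 kept their side of the threshold and none turned its direction. Only centring and equal library totals change the log2 fold change, so under the other settings its direction could not turn. A stricter threshold or a minimum size of change also cannot add a call. Of the list counts, 38 stayed within 1.5 times and 26 did not. With a log2 change of 1 or more required, 3 other wall genes, 1 RHS gene and 1 fate gene were higher in 6x_pfd, 1 marker of other root cell types was lower, and every other list count there, and all in pfd4, were 0. At an adjusted p below 0.01, the counts in 6x_pfd were 0 higher for other regulators and other root cell types, 2 higher and 0 lower for tip growth, and 3 lower for auxin and ethylene. At that threshold the counts in pfd4 were 2 lower for other root cell types and 0 lower for other regulators and tip growth. No paired analysis was possible because the tables used hold no value per library, and for the same reason no replicate could be left out and depth is unknown. With SEs of 0.26 to 0.32 in pfd4, above the median of 0.19 for genes in the same range of mean counts, changes of root hair genes under 0.74 (log2) could not be called there.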
